A study of Mus musculus with 135 samples.

Results

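The 500 broadest H3K4me3 domains of male germ cells were taken from the deposited list of germ cell peaks as those with the greatest length on the reference genome, mm10. Peaks on the sex chromosomes and peaks named as added from F1 hybrids were left out, which left 62358 of 67114 germ cell peaks to choose from. The 500 domains are 0.802% of these 62358 peaks and, with 3.53 Mb, 2.92% of the bases in them. They were chosen by their length in these libraries, so lengths are given as a description and none is tested. H3K4me3 was measured by ChIP-seq of MNase-digested chromatin, and every level below is a count of reads in a peak. Germ cells came from a crude isolation of male cells at 14 days post-partum and were of the F1 hybrid of C57BL/6J and DBA/2J (F1, 4 libraries), of 61 BXD recombinant inbred strains (69 libraries), of C57BL/6J (B6, 3 libraries) and of DBA/2J (D2, 3 libraries). BXD strains are fixed mosaics of the B6 and D2 genomes. Antibody lot 2557645 served the F1, B6 and D2 libraries and 33 of the BXD libraries, and lot 2746331 the other 36. Peaks of hepatocytes and cardiomyocytes of females aged 8 weeks (BXD75, BXD87, B6 and D2, 3 libraries each) and of embryonic stem cells derived at embryonic day 3.5 (BXD75 and BXD87, 5 lines each, B6 and D2, 3 lines each) were set beside the domains. All H3K4me3 libraries of these 3 cell types used lot 2746331, so cell type and lot cannot be told apart where they are set beside the F1, B6 and D2 germ cells. The labels do not say which libraries of a strain came from separate animals, so p-values measure only the spread between libraries.

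H3K4me3 is laid down by the SET1 and MLL family of methyltransferases, chiefly at promoters, where CpG-rich DNA draws proteins that bind unmethylated CpG. Most promoters carry a narrow peak beside the start site, and a small class carries domains that spread over several kilobases. In many cell types such broad domains are known to lie at genes of cell identity, and in embryonic cells CpG-rich regions of developmental regulators carry H3K4me3 together with the Polycomb mark H3K27me3. A 14-day testis holds germ cells up to meiotic prophase together with Sertoli cells, which surround them, and interstitial cells.

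The letters before a RefSeq start of each of 7 genes with a domain are shown. They are the 250 bases before a RefSeq start on GRCm38.p6, read along the gene's strand, with every CpG in capitals. Irs2 (chr8:11008930-11009179, minus strand) lies under the fourth broadest domain. Dhh (chr15:98898541-98898790, minus strand) and Inha (chr1:75507359-75507608, plus strand) are Sertoli cell genes. The Inha letters can be read as codons with no stop over most of the window. This start may therefore lie inside the gene, and its CpG count is not taken as that of the Inha promoter. Sycp3 (chr10:88459337-88459586, plus strand) is the gene of a meiotic list with a domain. Olig2 (chr16:91225300-91225549, plus strand) and Fhl2 (chr1:43196762-43197011, minus strand) had no peak in the other cell types, and Il3ra (chr14:14346245-14346494, plus strand) differed between B6 and D2.
Irs2: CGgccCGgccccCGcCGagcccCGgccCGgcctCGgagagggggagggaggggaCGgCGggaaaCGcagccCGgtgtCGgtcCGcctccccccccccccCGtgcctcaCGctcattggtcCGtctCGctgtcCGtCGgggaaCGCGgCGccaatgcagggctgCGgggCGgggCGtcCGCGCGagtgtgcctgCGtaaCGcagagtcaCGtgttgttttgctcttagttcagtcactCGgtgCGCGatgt
Dhh: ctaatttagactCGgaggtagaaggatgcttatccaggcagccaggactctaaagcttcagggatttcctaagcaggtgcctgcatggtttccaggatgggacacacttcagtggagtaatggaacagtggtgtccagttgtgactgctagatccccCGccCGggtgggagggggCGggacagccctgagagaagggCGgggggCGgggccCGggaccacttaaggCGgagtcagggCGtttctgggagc
Inha: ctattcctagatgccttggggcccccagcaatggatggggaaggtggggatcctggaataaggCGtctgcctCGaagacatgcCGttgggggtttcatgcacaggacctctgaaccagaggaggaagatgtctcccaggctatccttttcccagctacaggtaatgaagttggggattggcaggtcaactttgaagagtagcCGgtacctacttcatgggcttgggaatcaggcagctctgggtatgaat
Sycp3: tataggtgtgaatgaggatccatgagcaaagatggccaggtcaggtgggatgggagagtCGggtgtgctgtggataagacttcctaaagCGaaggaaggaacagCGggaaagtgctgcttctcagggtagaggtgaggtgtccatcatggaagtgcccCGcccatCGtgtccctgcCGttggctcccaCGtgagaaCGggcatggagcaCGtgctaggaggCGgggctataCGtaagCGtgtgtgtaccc
Olig2: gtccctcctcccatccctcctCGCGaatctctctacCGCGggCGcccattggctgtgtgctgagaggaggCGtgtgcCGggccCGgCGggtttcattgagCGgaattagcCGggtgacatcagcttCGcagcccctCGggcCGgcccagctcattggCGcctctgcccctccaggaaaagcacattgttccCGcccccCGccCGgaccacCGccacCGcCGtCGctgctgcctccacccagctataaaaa
Fhl2: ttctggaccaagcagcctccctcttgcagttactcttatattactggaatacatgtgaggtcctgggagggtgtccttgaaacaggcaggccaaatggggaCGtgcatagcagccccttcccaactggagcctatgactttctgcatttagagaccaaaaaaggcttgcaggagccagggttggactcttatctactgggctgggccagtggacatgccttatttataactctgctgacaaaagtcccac
Il3ra: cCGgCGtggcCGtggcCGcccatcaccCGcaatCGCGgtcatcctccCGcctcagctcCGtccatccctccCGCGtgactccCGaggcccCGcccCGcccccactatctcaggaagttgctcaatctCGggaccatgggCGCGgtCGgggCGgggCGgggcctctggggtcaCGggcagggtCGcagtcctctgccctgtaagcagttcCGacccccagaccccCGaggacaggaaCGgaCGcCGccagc

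Irs2 has 34 CpG in this window, more than 96.4% of the 31396 autosomal promoters in the RefSeq table. Il3ra has 27, Olig2 22, Sycp3 12, Dhh 9, Inha 4 and Fhl2 1. In all, 635 promoters of 502 genes lay inside 375 of the 500 domains. These promoters had a median of 18 CpG per window (quartiles 11 and 26), against 6 (quartiles 2 and 16) over all promoters. The E-box CACGTG, read on both strands, occurred in 8.35% of the promoters inside domains and in 6.02% of all promoters, and it stands at 2 places in the Sycp3 window. The cyclic AMP element TGACGTCA occurred in 1.73% and 1.58%, CCAAT in 37.6% and 33.7%, and TATAAA in 8.66% and 12.4%. These matches describe letters only.

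The domains were 5.86 to 14.1 kb long, with a median of 6648.5 bases, against 1667 bases over the 62358 peaks and 2748 bases over the 17876 of them within 1 kb of a transcription start. At the limit the last 3 domains included were those of Fzd2 (5867 bases), Leng9 (5865) and Cdk13 (5864), and the first 3 left out were those of Eef2 (5863), B4gat1 with Brms1 (5861) and Fam72a with Srgap2 (5855). On the second genome 485 of the 499 domains found on both genomes had a length within 10% of that on mm10. Length differed by over 25% at 4 domains. The domain at Gm45600 was 10.6 kb on mm10 and 14.9 kb on the second genome, that at Tmtc2 7.62 and 9.68 kb, the domain nearest to Ccr1 6.47 and 2.44 kb, and that at Amotl2 5.89 and 3.48 kb. The remaining domain, at Gm3435 and Gm3448, was called on the second genome alone.

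Almost all domains covered a gene start. By GENCODE M21, 457 held the start of a protein-coding gene, 21 that of another gene only, and 22 no start. Within 1 kb of a start lay 96% of the domains, against 28.7% of all 62358 peaks. A coding start of 1 gene lay in 390 domains, and 64 held 2 genes and 3 held more, 524 coding genes in all. In the 390 domains with 1 coding gene the mark reached a median of 2.24 kb upstream of the first start and 4.4 kb downstream of it, and 309 of the 390 lay mostly downstream. The first start is the most upstream one inside the domain, so any further start of the gene counts as downstream. Other promoter peaks were not measured in this way. Domains also had domains as neighbours. In 14 places they lay under 20 kb apart, among them Dlx1 and Dlx2 (4.34 kb apart), Hoxb7/Hoxb8 and Hoxb5/Hoxb6 (10.2 kb) and Kmt2d and Dhh (19.1 kb).

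CpG content was described beside that of other peaks, with no test. The median over the domains was 36.6 CpG per kb, against 28.0 in all promoter peaks and 17.7 in all 62358 peaks, and the ratio of observed to expected CpG was 0.553, 0.456 and 0.328 in the same order. GC content was 52.4%, 49.8% and 46.8%. There were 19 domains with a CpG ratio under 0.3, the lowest at Nfyc (0.153), a subunit of the CCAAT-binding factor NF-Y. The others included Gm45600 (0.206), Fhl2 (0.19), Mbnl1 (0.286) and the domains nearest to Sntb2 (0.22) and Slmapos2 (0.191).

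The broadest domain, 14.1 kb at chr5:123131466-123145598, covered the starts of Rhof, a small GTPase, and of Setd1b, itself a methyltransferase of H3K4. It was followed by 13.85 kb at Wt1 (chr2:105121865-105135714), a zinc finger factor required for the gonad and for Sertoli cells. The next were the domains of Nfib (12.5 kb), a nuclear factor I transcription factor, Irs2 (12.1 kb), an adaptor of insulin signalling, and Tnrc18 (11.96 kb). The homeodomain gene Dlx2 (11.29 kb), the zinc finger gene Osr2 (11.28 kb), the homeodomain gene Irx3 (11.08 kb), the zinc finger gene Zfp503 (10.99 kb) and Bcl11a (10.8 kb), a zinc finger repressor, completed the first 10.

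Genes of the germ cell lists were under a domain in a share near that of coding genes at large, or in none, and the difference was not tested. Of 36 meiotic prophase genes with a germ cell peak at the start, 1 (2.78%) had a domain: Sycp3, a protein of the lateral element of the synaptonemal complex, with 6.42 kb. Next in that list stood Zcwpw1, a reader of H3K4me3 and H3K36me3 at recombination sites, with 5.74 kb, and Sycp2 with 5.23 kb, both under the limit. None of 15 spermatogonia genes (widest Dazl, an RNA-binding protein of germ cells, 5.51 kb), none of 21 piRNA pathway genes and none of 12 spermiogenesis genes had a domain. Of all 13588 autosomal coding genes with a peak at the start, 524, or 3.86%, did.

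Genes of Sertoli cells were under domains in 9 of 15 cases, with a median peak length of 6.07 kb over the list, against 2.77 kb over the meiotic list and 3.16 kb over all coding genes. Beside Wt1 these were Gata4 (9.99 kb), a zinc finger factor of gonadal somatic cells, and Cyp26b1 (8.50 kb), which degrades retinoic acid. Inha (7.93 kb) and Inhbb (6.11 kb) encode inhibin subunits. Gdnf (7.91 kb), a growth factor for spermatogonial stem cells, Dhh (6.17 kb), a hedgehog ligand, Kitl (6.07 kb), the ligand of the Kit receptor, and Amh (6.01 kb), anti-Müllerian hormone, are secreted or shown on the surface of Sertoli cells. Of 9 genes of Leydig, peritubular, vascular and blood cells 1 had a domain, Tcf21 (9.97 kb), a basic helix-loop-helix factor of interstitial progenitors. The libraries are labelled as male germ cells, and the labels describe a crude isolation. Since the domains held 9 of 15 Sertoli genes and 1 gene of the 4 germ cell lists, they are called by their length here and not taken as marks of germ cells. The share of somatic cells was not measured, and its part in the length of any domain was not tested.

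The Hox genes, homeodomain factors that pattern the body axis, had 8 of 32 genes under a domain, in 5 domains. Hoxb5/Hoxb6, Hoxc5/Hoxc6 and Hoxb7/Hoxb8 each shared a domain of 7.27, 7.26 and 7.18 kb. In the list of developmental factor families, which include Dlx, Irx, Lhx, Nkx and Tbx, 12 of 46 genes (26.1%) had a domain. That list held 12 domains, against 9 in the Sertoli cell list, with a median peak length of 4.76 kb over its genes. Among 19 writers and erasers of H3K4 methylation 3 had a domain, Setd1b, Kmt2e (7.41 kb) and Kmt2d (7.31 kb). Tbx3, Klf4 and Prdm14, 3 of 16 naive pluripotency genes, had domains. Of ribosomal protein genes 1 of 62 (1.61%), Rpl35, had a domain, and of genes named Zfp 7 of 279 (2.51%), beside 3.86% of all coding genes. Gata4 was the domain gene of 9 cardiomyocyte genes, and 0 of 7 hepatocyte genes had a domain.

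**Figure D1:**
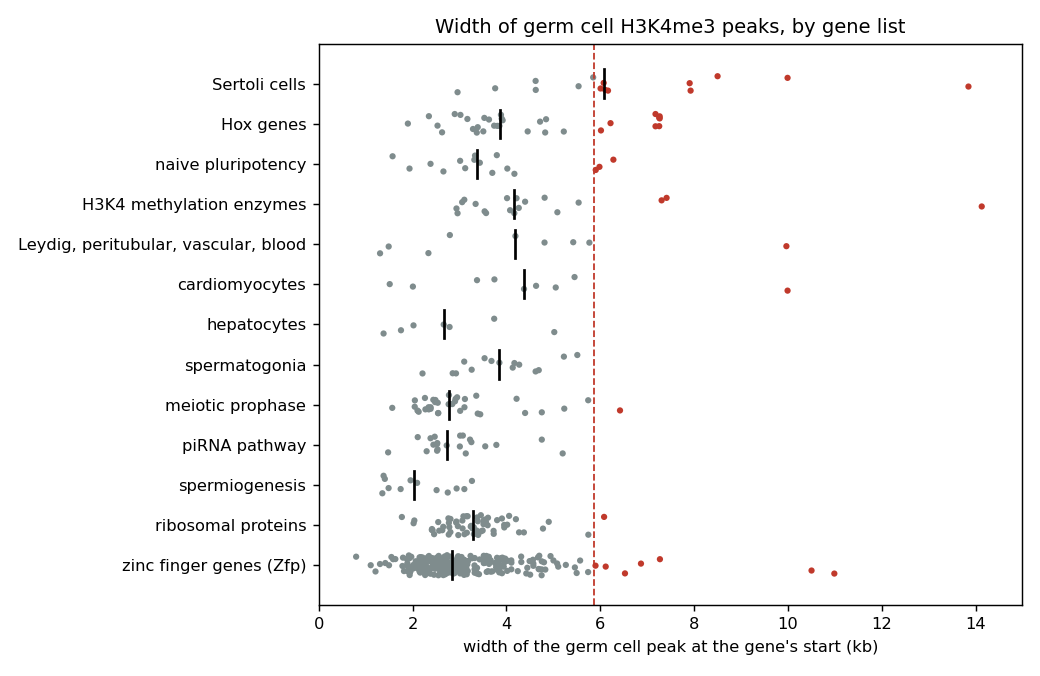
Length in kb (x axis) of the germ cell peak at the start of each gene, by gene list (rows). The list of developmental factor families is not shown. Each point is a gene, red points are genes under 1 of the 500 domains, the black bar is the list's median and the dashed line the shortest domain, 5.86 kb. The Sertoli cell list has its median, 6.07 kb, beyond the line, and the meiotic list has 1 red point.

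The germ cell libraries held 1868469 to 31404259 reads in peaks. The share of these reads in the domains was 3.93% to 4.22% in F1, 3.45% to 4.64% in BXD libraries of lot 2557645, 3.84% to 4.78% in those of lot 2746331, 3.70% to 4.53% in B6 and 3.88% to 4.37% in D2. Libraries of all groups overlapped. Levels are given as CPM, the reads in a peak relative to all reads in peaks of the library, with TMM scaling. Per kb, the domains had a median of 11.2 CPM over the F1, B6 and D2 libraries (quartiles 7.91 and 14.97), against 8.85 in promoter peaks (4.49 and 16.2) and 3.79 in all peaks. Of the 500 domains, 159 were in the top 10% of the 62358 peaks by CPM per kb and 8 in the lower 50%. The densest domains were those of Sin3a, a scaffold of histone deacetylase complexes (30.1 CPM per kb), Kmt2e (28.45) and Ddx5 with Cep95 (27.5). The sparsest were Fhl2 (1.825), Mylk (3.14), Hoxd11 (3.235), Six2 (3.37) and Olig2 (3.37). By list, the median was 5.61 CPM per kb in the 5 Hox domains, 8.68 in the 9 Sertoli domains and 13.2 at Sycp3.

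Most domains were marked in the other cell types too, and a minority were among their broadest. Peaks of embryonic stem cells overlapped 468 domains (93.6%, against 49.4% of all 62358 peaks and 79.95% of promoter peaks). Cardiomyocyte peaks overlapped 460 (92%, against 26.3% and 63.2%) and hepatocyte peaks 405 (81%, against 25.3% and 58.4%). Peaks of all 3 cell types overlapped 372 domains, where they overlapped 17.0% of all 62358 peaks. There were 5 domains with no overlap, where 44.5% of all 62358 peaks had none. The 500 broadest autosomal peaks of each type started at 14463 bases in stem cells, 18292 in cardiomyocytes and 13960 in hepatocytes, and held 55, 58 and 49 of the domains. In the same order these were 11%, 11.6% and 9.8% of the domains, against 1.23%, 1.65% and 1.24% of all 62358 peaks. None of these broadest peaks covered 381 domains, and 11 were under such a peak in all 3 types. Peak lists differ in depth, number and naming between cell types. The stem cell list holds 67192 peaks, the cardiomyocyte list 23809 and the hepatocyte list 29138, and names containing peakJ occur in those lists and not in that of germ cells. What such a name marks the sources used here do not say. Lengths are therefore not compared by a test.

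**Figure D2:**
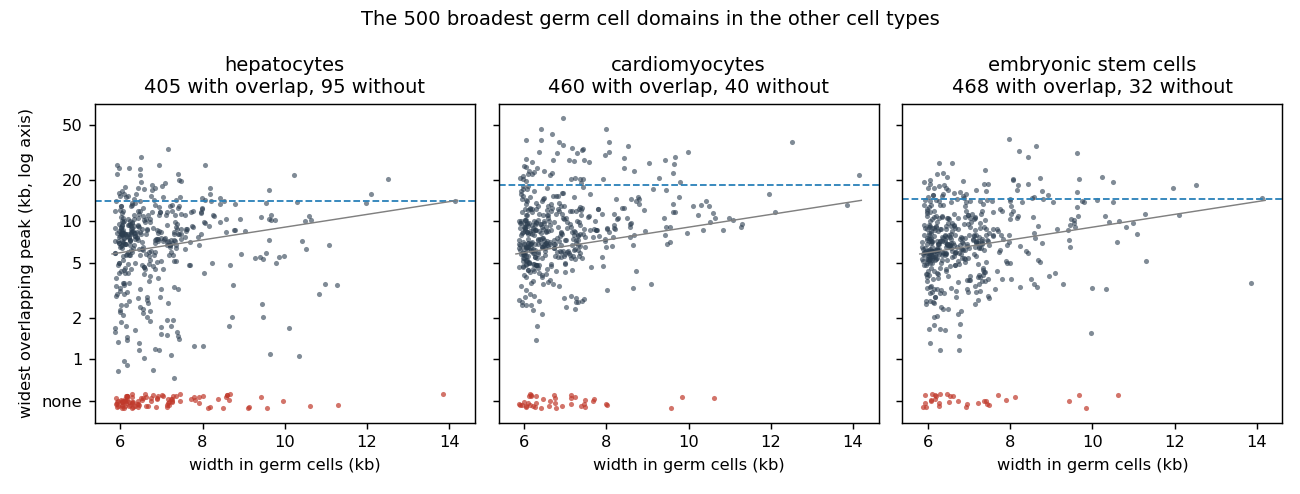
Length of each domain in germ cells (x axis, kb) against the widest overlapping peak of another cell type (y axis, kb, log axis), 1 panel per type. Red points have no overlapping peak, the dashed line is the shortest of that type's 500 broadest peaks and the grey line marks equal length. Most domains lie below the dashed lines, which stand at 13960, 18292 and 14463 bases.

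Of the 10 broadest domains, the one at Rhof and Setd1b was wide everywhere, with peaks of 14.1 kb in hepatocytes, 21.6 kb in cardiomyocytes and 14.7 kb in stem cells. Nfib was likewise among the broadest of all types (20.3, 37.6 and 18.2 kb in the same order). Wt1 had no hepatocyte peak, a peak of 13.2 kb in cardiomyocytes and pieces of at most 3.56 kb in stem cells. Dlx2 had none in hepatocytes, 9.49 kb in cardiomyocytes and 5.17 kb in stem cells. Other domains broad in all 4 cell types were those of Mef2d, a MADS-box factor, Qk, an RNA-binding protein, Kmt2e, Chd2, a chromatin remodeller, Anp32a, and Neat1, the long noncoding RNA of paraspeckles, whose domain also covers the starts of neighbouring transcripts. Of the 9 Sertoli domains, 4 overlapped a hepatocyte peak, 8 a cardiomyocyte peak and 9 a stem cell peak. Sycp3 had no peak in hepatocytes or cardiomyocytes and 1.63 kb in stem cells.

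The 5 domains with no overlap in any other type were Gm45600 (chr8:47004065-47014680, 10.6 kb), Olig2 (chr16:91221537-91229246, 7.71 kb), Gm3435 with Gm3448 (6.92 kb), Fhl2 (chr1:43191130-43197741, 6.61 kb) and E130114P18Rik (6.28 kb). Olig2, a basic helix-loop-helix factor of oligodendrocytes and motor neurons, has a CpG ratio of 0.646, and Fhl2, a LIM domain cofactor, 0.19. Their CPM were low to moderate, with panel medians over 61 BXD strains of 19.8 at Fhl2, 36.6 at Olig2, 39.4 at E130114P18Rik and 69.2 at Gm45600. Of the 20 domains beyond 1 kb of any start, some of the broadest lay 6.33 kb from Olfr1421-ps1 (9.67 kb long), 94 kb from Mir148a (8.59 kb), 4.8 kb from Trim27 (8.19 kb) and 11.2 kb from Cbx8 (7.57 kb). Of these, all but that near Mir148a overlapped peaks of hepatocytes, and all but that near Olfr1421-ps1 overlapped peaks of stem cells.

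Between the founder strains the number of domains that differed depended on single libraries. With edgeR's quasi-likelihood test, 31 of 500 domains (6.2%) passed a Benjamini-Hochberg adjusted p of 0.05 for B6 minus D2 in germ cells, where 17.3% of all 67101 peaks tested and 7.26% of promoter peaks did. Of these, 23 were higher in B6 (9.23% of all peaks were) and 8 lower (8.11%). An unadjusted p under 0.05 was reached by 78. DESeq2 called 43, 27 higher and 16 lower, and edgeR with at least 50 reads in every library of 1 group called 38, 34 higher and 4 lower. The median absolute log2 difference was 0.14 over the domains, 0.31 over all peaks and 0.15 over promoter peaks. The 3 B6 and 3 D2 libraries did not overlap at 62 domains (12.4%), against 30% of all peaks and 17% of promoter peaks. B6 was above D2 at 25 of the 62 and below at 37, while the calls were mostly higher in B6. Over promoter peaks it was above at 962 and below at 2071, and over all peaks at 9377 and 10763. This separation is a description and not a test. All peaks tested include those of the sex chromosomes and those added from F1 hybrids. Of the 62358 peaks, 22.1% were called on mm10 alone and 5.15% on the second genome alone, against 0 and 1 of the domains. The part of this in the shares was not tested. Without library B62 the count of calls was 102 (93 higher), or 20.4% of the domains against 15.1% of all peaks, so the share was then above that of all peaks. Without B63 it was 72 (21 higher and 51 lower), 14.4% against 24.2%, and without B64 12, 2.4% against 11.4%. Without D2 library 1 it was 15, 3% against 13.3%, and without D2 library 3 12, 2.4% against 15.6%. A fit of the B6 and D2 libraries alone called 20, 4% against 12.9%.

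The 3 B6 libraries also differed in promoter share and in their marker lists. Promoter peaks held 55.0% of reads in peaks in B62, 66.5% in B63 and 63.9% in B64, against 61.9%, 65.1% and 62.15% in D2. In B62, B63 and B64 the spermatogonia peaks summed to 690.9, 917.5 and 790.6 CPM and the Hox peaks to 554, 794.4 and 557.8 CPM. The piRNA pathway peaks summed to 782.3, 798.7 and 708.9 CPM. The 9 Sertoli domains summed to 560.3 CPM in B62, 890.5 in B63 and 772.2 in B64, against 622.7, 714.7 and 601 in D2. These ranges overlapped. The 36 meiotic peaks summed to 1538, 1758 and 1572 CPM in B6, all below the 1911, 1925 and 1955 of D2. The part of the promoter share and of these lists in the founder differences was not tested. Of the lists, 1 Sertoli domain (Kitl, log2 0.56) was higher in B6 and 1 Hox domain (Hoxb7/Hoxb8, log2 -0.45) lower.

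The domain nearest to Ccr1, a chemokine receptor gene, differed most among those higher in B6. It lies at chr9:123923059-123929530, 39.2 kb from that start. Its libraries stood at 30.6, 28.2, 29.3 and 26.6 CPM in F1, 33.1, 42.1 and 46.7 CPM in B6, and 5.65, 7.21 and 3.705 CPM in D2. The 3 groups did not overlap. The log2 difference of B6 minus D2 was 2.83 ± 0.20 (SE), with an edgeR adjusted p of 3.91e-09. This is also the domain whose length on the second genome was 2.44 kb. The sources used here do not give the genome on which its reads were counted, and the part of this in the difference was not tested.

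Mbnl1, an RNA splicing regulator, had 35.1, 27.4 and 32.4 CPM in B6, against 21.6, 15.5 and 19.9 in D2 (log2 0.73 ± 0.17 SE, adjusted p 0.00415, edgeR). Map3k21, a kinase gene, had 51.5, 67.7 and 84.5 CPM in B6, against 39.4, 49.7 and 33.6 in D2 (log2 0.73 ± 0.18, adjusted p 0.00816, edgeR). The domain of Neat1 had 49.4, 72.5 and 77.5 CPM in B6, against 42.2, 42.5 and 36.4 in D2 (log2 0.72 ± 0.16, adjusted p 0.00414, edgeR). In these 3 domains every B6 library was above every D2 library, the lowest B6 value by little at Map3k21. Mro (log2 0.69 ± 0.15) and the domain 46.9 kb from Slmapos2 (log2 0.68 ± 0.16) were higher in B6 too, with adjusted p of 0.0031 and 0.00547 by edgeR.

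The domain of Gm3435 and Gm3448 had 0 reads in all 3 B6 libraries, against 497, 465 and 457 CPM in D2. A count of 0 allows up to 3 reads per library, so the level in B6 was at least 1209-fold lower. The domain was called on the second genome alone, and the sources used here do not give the genome on which its reads were counted. Il3ra, the alpha chain of the interleukin 3 receptor, had 34.7, 44.9 and 37.1 CPM in B6, against 70.6, 82.4 and 60.0 in D2 (log2 -0.87 ± 0.16, adjusted p 0.000441, edgeR). The intronic domain 31.3 kb from Sntb2 had 51.1, 26.6 and 32.8 CPM in B6, against 73.3, 56.3 and 71.4 in D2 (log2 -0.87 ± 0.21, adjusted p 0.00522, edgeR).

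Gm45600 had 49.3, 33.9 and 48.5 CPM in B6 and 78.4, 56.4 and 71.8 in D2 (log2 -0.66 ± 0.18, adjusted p 0.0172, edgeR), and B6 lay below D2 throughout. The homeobox gene Otx1 and the zinc finger gene Fezf2, both of forebrain development, were lower in B6 by edgeR with log2 -0.52 ± 0.16 (adjusted p 0.028) and -0.54 ± 0.17 (adjusted p 0.0305). The calls at Otx1, Fezf2 and Gm45600 were lost under 5, 7 and 4 of 11 alternative settings. The 31 domains called had a median CpG ratio of 0.411, against 0.56 in the other domains, and 4 of the 22 domains with no start inside were among them. These features were not tested.

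**Figure D3:**
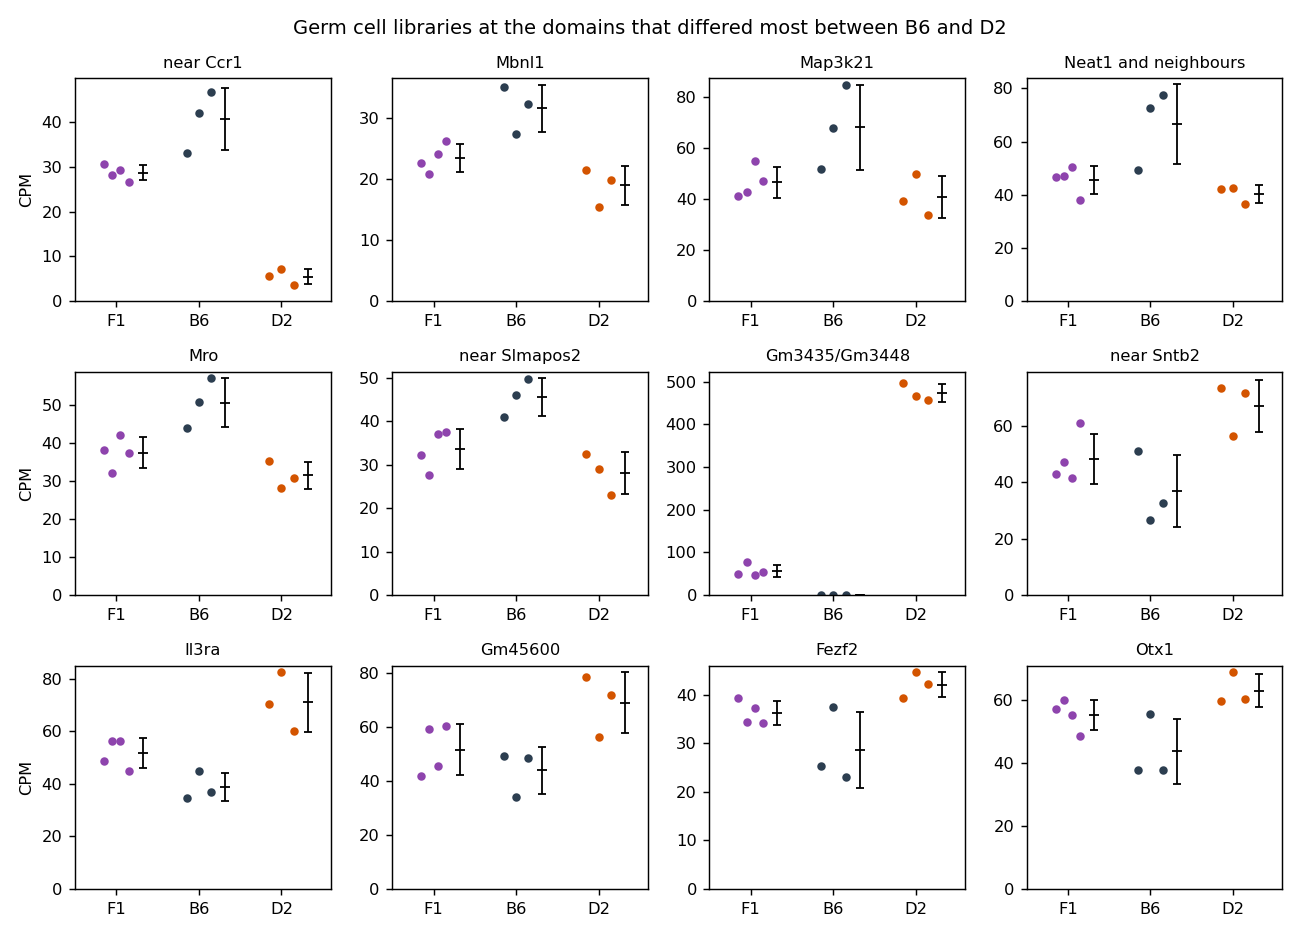
CPM (y axis, from 0) of each germ cell library of F1, B6 and D2 at the 12 domains that differed most between B6 and D2. Points are libraries and bars the mean with its SD. The domain nearest to Ccr1 has 3.705 to 7.21 CPM in D2, and that of Gm3435 and Gm3448 0 in B6.

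In F1 hybrids few domains differed from the mean of both parents. With edgeR's quasi-likelihood test on F1 minus the mean of the log2 levels of B6 and D2, 2 of 500 domains passed an adjusted p of 0.05, both higher in F1, where 1.59% of all peaks passed (1.3% higher and 0.298% lower). An unadjusted p under 0.05 was reached by 3, DESeq2 called 3, and without library B62 edgeR called 5. The 2 domains called with all libraries are ones that stood apart between the founders. At that nearest to Ccr1, F1 was above the mean of the log2 levels by 0.91 (adjusted p 0.000975, edgeR), and its 4 libraries lay between those of B6 and D2. Where parents differ, the mean of their log2 levels lies below the log2 of their mean CPM. Part of the 0.91 is set by that scale, and a difference from the mean CPM of the parents was not tested. The other call is at Gm3435 and Gm3448. With 0 reads in B6, the mean of the log2 levels there is set by the 0, and the call is not read as a difference from the parents. F1 libraries had 49.0, 77.0, 48.1 and 54.0 CPM, or 57.0 ± 13.6 CPM (SD, n = 4), against 0 in B6 and a mean of 473 CPM in D2, which was 8.30-fold that of F1. Against D2 alone, 2 of 500 domains were called by edgeR in F1, 1 higher and 1 lower, where 5.87% of all peaks were (2.65% higher and 3.22% lower). These comparisons share the B6 and D2 libraries with the founder contrast.

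The 61 BXD strains were then compared with each other. After the lot means were taken off log2(CPM + 1), the SD over strains had a median of 0.17 over the domains, against 0.18 over promoter peaks and 0.27 over all peaks. The 31 domains called between B6 and D2 had a median SD of 0.26. The largest was at the domain nearest to Ccr1 (0.55), followed by those nearest to Sntb2 (0.43), of Gm3435 and Gm3448 (0.375), of Gm45600 (0.374) and of Aldh1a1 (0.366), a retinaldehyde dehydrogenase. With all germ cell libraries scaled together, the strains ran from 17.0 to 71.1 CPM near Ccr1, with a median of 52.35 and quartiles of 30.65 and 57.2. B6 stood at 36.2 to 50.5 CPM and D2 at 4.08 to 7.97 CPM on that scale. All 61 strains were above the highest D2 library, 38 were above both founder means and 23 between them. At Gm3435 and Gm3448 the strains ran from 74.5 to 221 CPM, and all 61 were above B6 and below the lowest D2 library (504 CPM). Il3ra ran from 37.1 to 83.4 CPM, and 52 of 61 strains lay between the founder means.

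Libraries of the 2 antibody lots differed at most domains. With the libraries of a strain summed, 28 strains of lot 2557645 were set against 32 of lot 2746331. edgeR's quasi-likelihood test called 302 of 500 domains (60.4%) at an adjusted p of 0.05, where 56.4% of all peaks were called. Of these, 95 were higher with lot 2557645 (29.7% of all peaks were) and 207 lower (26.7%). Lower were 8 of 9 Sertoli domains (median log2 -0.29) and 4 of 5 Hox domains (median -0.20), against a median of -0.06 over the 500. Sycp3 was higher by 0.22 ± 0.04 (adjusted p 4.5e-06, edgeR). The largest differences with lot 2557645 were at Adora1 (log2 -0.54 ± 0.07) and at Gm45600 (0.615 ± 0.10). Each lot holds other strains, so lot and strain cannot be told apart. BXD99 was left out because its libraries span both lots.

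Several marker sums differed between the lots, and that of spermatogonia differed little. The 9 Sertoli domains summed to a median of 699 CPM (525 to 952) in libraries of lot 2557645 and 822 CPM (640 to 1093) in those of lot 2746331. The 36 meiotic peaks summed to 1482 CPM (1177 to 1866) and 1324 CPM (1079 to 1517). In the same order, all peaks of the Sertoli list had medians of 995 and 1140 CPM, and Hox peaks 728 and 818 CPM. The list of Leydig, peritubular, vascular and blood cells had 245 and 272 CPM. The piRNA pathway list had 741 and 679 CPM and the spermatogonia list 731 and 720 CPM. Fewer cells of a type and less mark per cell cannot be told apart in such libraries, and the part of these sums in the lot difference was not tested.

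**Figure D4:**
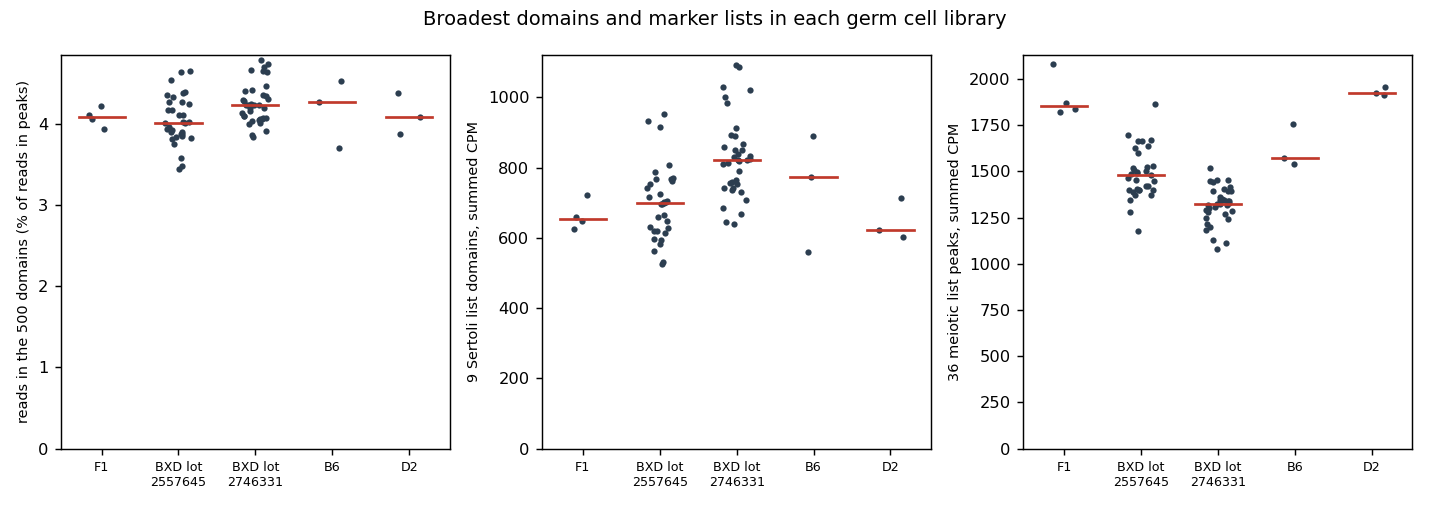
Each point is a germ cell library, by group (x axis: F1, BXD of both antibody lots, B6, D2), and red bars are medians. Left, reads in the 500 domains as a percent of reads in peaks. Middle, summed CPM of the 9 Sertoli domains. Right, summed CPM of the 36 meiotic peaks. The middle sums are lower and the right sums higher with lot 2557645 than with lot 2746331 (medians 699 and 822, 1482 and 1324 CPM).

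The other Sertoli domains varied with that of Wt1 over the strains, as many other domains did. With lot means removed, the Wt1 domain correlated over 61 strains with Dhh at a Pearson r of 0.932 (Spearman rho 0.928), with Inha at an r of 0.91 (rho 0.903), with Gata4 at 0.853 (rho 0.825), with Kitl at 0.847 (rho 0.824) and with Inhbb at 0.827 (rho 0.839). Amh (r 0.726, rho 0.728), Gdnf (r 0.721, rho 0.777) and Cyp26b1 (r 0.565, rho 0.62) followed. All 8 had a permutation p of 1e-05 for both coefficients, the smallest that 100000 permutations can give, and 1e-05 after Benjamini-Hochberg adjustment over the 9 relations computed. Without the 2 strains farthest from the median of Wt1, r was 0.602 to 0.915, and within the lots it was 0.504 to 0.884 (28 strains of lot 2557645) and 0.621 to 0.97 (32 strains of lot 2746331).

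Many other domains correlated with Wt1 too. The r of Wt1 with all 499 other domains had a median of 0.504 and quartiles of 0.331 and 0.684. The permutation p compares r with no correlation, so it does not set the Sertoli domains apart from the other domains. Cyp26b1 (r 0.565) lay between these quartiles, and Gdnf (0.721) and Amh (0.726) lay little above the upper one. Sycp3 went the other way, with r -0.355 (adjusted permutation p 0.00545) and rho -0.259 (adjusted permutation p 0.0435), and r -0.257 without the 2 farthest strains. This relation did not hold within both lots. r was 0.0242 over 28 strains of lot 2557645 and -0.664 over 32 strains of lot 2746331.

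**Figure D5:**
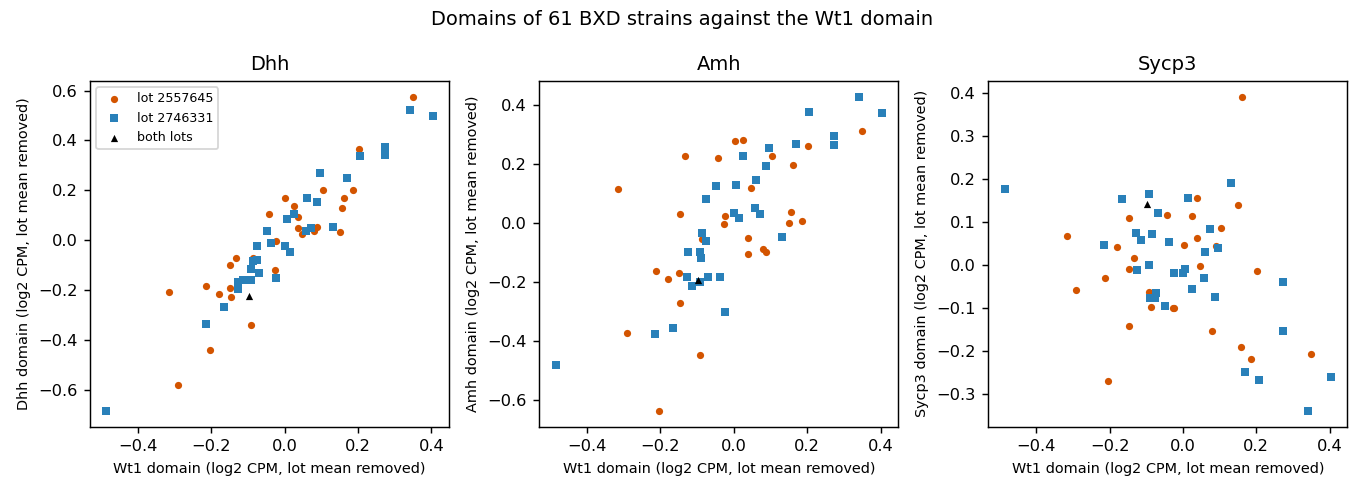
Log2 CPM of the domains of Dhh, Amh and Sycp3 (y axes) against that of Wt1 (x axis) in 61 BXD strains, lot means removed. Orange circles are strains of lot 2557645, blue squares those of lot 2746331, and the black triangle the strain with both. Dhh follows Wt1 in both lots (r 0.884 and 0.97), and Sycp3 is lower where Wt1 is higher in lot 2746331 (r 0.0242 in lot 2557645 and -0.664 in lot 2746331).

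In the other cell types, the peaks under the domains were read in the same contrast of B6 minus D2. With edgeR at an adjusted p of 0.05, 24 of 404 hepatocyte peaks were called (13 higher, 11 lower), where 15.8% of all hepatocyte peaks were (7.36% higher and 8.41% lower). In cardiomyocytes 45 of 456 were called (32 higher, 13 lower), where 6.51% of all were (4.06% and 2.45%). In stem cells 44 of the 466 were called (30 higher, 14 lower), where 30.6% of all were (14.8% and 15.8%). DESeq2 called 75 in cardiomyocytes, 42 higher and 33 lower. The cardiomyocyte count moved by over 1.5 times with each of the 6 libraries: it was 24, 108 and 22 without B6 libraries 1, 2 and 3 and 28, 20 and 27 without D2 libraries 1, 2 and 3. The 108 were 45 higher and 63 lower. Against the 13 lower with all libraries, 1 was lower without B6 library 1 and 1 without B6 library 3. Without D2 libraries 1, 2 and 3 the lower calls were 2, 1 and 2. Without B6 library 1 the hepatocyte count was 15. Of the domains called in germ cells, 21 had a tested peak in hepatocytes, of which 7 were called there too (3 in the same direction). In cardiomyocytes 3 of 23 were called (3 in the same direction) and in stem cells 3 of 24 (2 in the same direction).

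Il3ra was called lower in B6 in 3 cell types, germ cells included. Cardiomyocytes had the same sign without a call (log2 -0.71, adjusted p 0.0907, edgeR), with 33.7 ± 8.02 CPM in B6 and 55.4 ± 11.05 CPM in D2 (SD over 3 libraries each). Hepatocytes of B6 had 24.3 ± 0.51 CPM and those of D2 37.7 ± 3.18 CPM (SD over 3 libraries each), with a log2 difference of -0.63 (adjusted p 0.000629, edgeR). Stem cell lines of B6 had 17.1 ± 2.32 CPM and those of D2 26.5 ± 3.795 CPM (SD over 3 lines each), with a log2 difference of -0.64 (adjusted p 0.00139, edgeR). Near Ccr1, hepatocytes of B6 had 20.5 ± 1.05 CPM and those of D2 11.2 ± 1.93 CPM (SD over 3 libraries each; log2 0.86, adjusted p 0.00109, edgeR), the direction seen in germ cells. Rfx4, a transcription factor of the RFX family, was lower in B6 in germ cells (log2 -0.48, adjusted p 0.046, edgeR), cardiomyocytes (log2 -0.89, adjusted p 0.0464, edgeR) and stem cells (log2 -0.34, adjusted p 0.0328, edgeR). The calls at Rfx4 in germ cells and cardiomyocytes were near the limit, and the number of cardiomyocyte calls lower in B6 depended on single libraries. The domain in an intron nearest to Gata4, 16051 bases from that of Gata4 itself, was higher in B6 in germ cells (log2 0.57 ± 0.14, adjusted p 0.00696, edgeR) and in cardiomyocytes, where the levels were 136 ± 14.9 CPM for B6 and 57.8 ± 4.69 CPM for D2 (SD over 3 libraries each; log2 1.24, adjusted p 6.43e-05, edgeR). On the second genome this domain was 4.87 kb long, against 6.48 kb on mm10.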

How the data were processed

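H3K4me3 ChIP-seq reads in peaks were deposited by the authors as raw read counts per peak and library, with a list of peak coordinates for each cell type (with coordinates on mm10 and on a further genome, of which no build is named). CASAVA 1.8, BWA 0.5.10, MACS 1.4.2 and mm10 are named in the submitters' processing notes, and filters on reads are not stated there. Peaks are listed over all samples of a cell type together, so breadth has no replicates. Length was taken as end minus start. Genes came from GENCODE M21, promoters from the RefSeq table (GRCm38.p6) and base composition from that genome. Overlap with another cell type meant at least 1 shared base.

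Counts of the whole table of a cell type were tested with edgeR 4.0.16 in R 4.3.3 (TMM, filterByExpr, quasi-likelihood test, Benjamini-Hochberg over all peaks tested), checked on simulated data. F1, B6 and D2 germ cell libraries shared 1 fit. Founders and BXD75 and BXD87 shared 1 fit in each other cell type, with libraries of a stem cell line summed. Alternatives were DESeq2 1.42.0, RLE factors, other count filters, libraries left out, the replicate block and 250 or 1000 domains. Libraries held 8952415 to 25226958 reads in peaks in hepatocytes, 2618483 to 12775606 in cardiomyocytes and 13782309 to 20214240 in stem cells. The 12 input samples were not analysed here. Named domains were the 10 broadest, the 6 with the largest B6 minus D2 difference in each direction, up to 3 in each direction for F1, those without overlap, those broad in all cell types, those of the gene lists and those far from starts, and others were named after their values were seen. The members and lists were chosen with earlier results of these data known.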

Additional observations from a re-analysis of the deposited data

Results flagged for a closer look

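At 4 domains the difference of B6 minus D2 ran opposite ways in 2 cell types, with every library of B6 on one side of every library of D2 in each. The difference between cell types was not tested. Germ cells of B6 and D2 used antibody lot 2557645 and the other cell types lot 2746331, so cell type and lot cannot be told apart. In germ cells of BXD strains the Adora1 domain had a log2 difference of -0.54 for lot 2557645 minus lot 2746331. Adjusted p-values are from edgeR, and values are CPM ± SD of 3 libraries or lines each.

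F11r, a junctional adhesion molecule, had a log2 difference of 0.4843 in germ cells (adjusted p 0.0372) and -0.24 in hepatocytes, where B6 had 122 ± 4.32 CPM and D2 145 ± 5.87 (adjusted p 0.0448). Its cardiomyocyte peak was called higher in B6, as in germ cells (log2 0.67, adjusted p 0.000238), with 181 ± 11.4 CPM against 114 ± 4.37 in D2. Stem cells had the sign of hepatocytes without a call (log2 -0.26, adjusted p 0.119). Mbnl1 had a log2 difference of 0.7341 in germ cells and -0.50 in hepatocytes, where B6 had 142 ± 13.9 CPM and D2 200.3 ± 8.80 (adjusted p 0.000316). Adora1, the adenosine A1 receptor gene, had a log2 difference of 0.6405 in germ cells and -0.28 in hepatocytes, where B6 had 63.9 ± 3.94 CPM and D2 77.5 ± 2.74 (adjusted p 0.0436). Aard had a log2 difference of 0.5921 in germ cells and -0.45 in embryonic stem cells, where B6 had 44.3 ± 1.27 CPM and D2 60.4 ± 11.03 (adjusted p 0.0041).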

How the results depend on the processing

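Leaving out single libraries gave 12 to 102 domains called for B6 minus D2 in germ cells, against 31 with all libraries. Beside these, 11.4% to 24.2% of all peaks were called, and without B62 the share was 20.4% of domains against 15.1% of all peaks, where with all libraries it was 6.2% against 17.3%. The same gave 2 to 5 for F1 minus the mean of its parents, against 2. Leaving out libraries also gave 15 to 22 hepatocyte peaks (24 with all libraries), 20 to 108 cardiomyocyte peaks (45) and 30 to 60 stem cell peaks (44). The fit of B6 and D2 alone called 20 domains, and the 250 and 1000 broadest domains gave 17 and 52 calls. DESeq2 called 75 cardiomyocyte peaks. The cause of these shifts was not tested. Overlap that covers at least 50% of a domain held for 66.2% in hepatocytes, 87.2% in cardiomyocytes and 88% in stem cells. In the same order it held for 22.4%, 24.8% and 46.4% of all 62358 peaks. Among the named domains, Fezf2, Otx1, Gm45600, Map3k21 and the domain nearest to Sntb2 lost their call under 7, 5, 4, 2 and 1 of 11 alternatives, and none changed direction.

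Replicate numbers were not taken as pairs in the main fits. Correlations between same-numbered B6 and D2 libraries were -0.016 to 0.116 in hepatocytes and -0.311 to 0.219 in cardiomyocytes. They do not settle whether the numbers pair the samples. With the replicate block 28 hepatocyte and 28 cardiomyocyte peaks were called, against 24 and 45 without it. F1 minus D2 called 2 domains over all 10 libraries, 6 over replicates 1 to 3 without the block and 8 with the replicate block. The labels number the B6 germ cell libraries 1 to 3, but the count table names them B62, B63 and B64, so they could not be tied to those numbers. Depth of 1868469 to 31404259 reads limits sparse domains most, and peaks are one list per cell type, so no error can be given for a length.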
